A study of Mus musculus with 2 samples.

Results

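A small set of accessible regions of the mouse urinary bladder passed a threshold on DNase-seq signal and yet held no footprint in either of 2 libraries. These strong footprint-free peaks were chosen by a rule on the deposited values: a peak of the longer peak list on chromosomes 1 to 19, with a peak signal of 1 or more, that overlapped no footprint of its own library and overlapped by at least 1 bp a peak of the other library meeting the same conditions. The rule found 418 peaks among 82472 autosomal peaks in replicate 1 and 423 among 109240 in replicate 2. They formed 407 regions when overlapping peaks of the libraries were merged, and 391 of them paired 1 to 1 between the libraries. The peak signal and the absence of footprints chose the peaks, so both are given as a description and neither is tested.

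The libraries came from bladder tissue of female adult B6CASTF1/J mice, the first generation of a C57BL/6 by CAST cross, at an age of 18 to 20 months. They form a single group of biological replicates 1 and 2, with no treatment and no second genotype, and the labels list both under 1 donor record without saying whether more than 1 animal was used. The spread between them may therefore be technical. As a check of the tissue label, 21 of 25 urothelial genes and 9 of 23 autosomal smooth muscle genes had a promoter peak of signal 1 or more in both libraries, against 1 of 9 autosomal hepatocyte genes, 1 of 10 germ cell genes and 3 of 10 central neuron genes. Of the remaining cell type lists, 12 of 20 fibroblast, 4 of 9 pericyte, 3 of 8 mesothelium and 1 of 16 endothelium genes had one. So did 2 of 12 myeloid, 2 of 14 lymphoid and 1 of 9 autosomal glia and peripheral neuron genes. Over all autosomal protein-coding genes the count was 11416 of 20780 (54.9%). The urothelial and fibroblast lists stood above that share, and the other lists named here below it. Low counts were thus not confined to the lists for other tissues.

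DNase I cuts DNA that is not wrapped in nucleosomes, and regions dense in cuts mark promoters, enhancers and insulators. Within such a region a protein that sits on the DNA shields a short stretch from cutting, which leaves a footprint, and long-lived binders such as CTCF, the zinc finger protein of insulators and loop anchors, are known for clear ones. At an active promoter the open region usually lies just upstream of the transcription start site (TSS) and is flanked by positioned nucleosomes.

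Printed first are sequences of strong footprint-free peaks taken from those with the highest mean signal among peaks of at most 300 bp, free of exons, under 20% repeat-masked and under 10% made of 31-mers that occur elsewhere in the genome. All are from mm10, plus strand, and matches to the GC box (GGGCGG, the core recognised by SP and KLF factors, searched on both strands) stand in capitals. The first lies 930 bp downstream of the nearest TSS of Tuba1c, an alpha-tubulin gene, and the second 390 bp downstream of a TSS of Ndel1, which encodes a partner of the dynein motor. The third lies at an offset of -471 bp (negative is upstream) from a TSS of Zkscan5, a zinc finger gene, and the fourth lies between genes, 17709 bp downstream of the nearest TSS, that of the antiproliferative gene Btg2. The first 3 held no GC box match and the Btg2 one held 2, and none of the 4 matched the CTCF consensus.
Tuba1c peak, chr15:99030721-99030920: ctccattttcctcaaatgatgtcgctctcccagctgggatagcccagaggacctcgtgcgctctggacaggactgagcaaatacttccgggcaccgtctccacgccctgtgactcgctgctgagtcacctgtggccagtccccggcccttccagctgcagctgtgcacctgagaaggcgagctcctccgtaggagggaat
Ndel1 peak, chr11:68852521-68852780: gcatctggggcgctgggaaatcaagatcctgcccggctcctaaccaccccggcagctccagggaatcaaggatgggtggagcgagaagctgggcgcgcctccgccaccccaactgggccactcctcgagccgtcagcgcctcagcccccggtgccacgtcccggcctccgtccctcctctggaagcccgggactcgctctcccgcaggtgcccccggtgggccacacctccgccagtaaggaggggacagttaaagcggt
Zkscan5 peak, chr5:145203981-145204200: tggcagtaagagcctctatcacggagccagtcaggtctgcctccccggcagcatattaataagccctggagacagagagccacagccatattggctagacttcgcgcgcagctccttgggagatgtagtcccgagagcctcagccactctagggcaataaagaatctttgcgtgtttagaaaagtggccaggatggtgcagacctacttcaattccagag
Btg2 peak, chr1:134061281-134061540: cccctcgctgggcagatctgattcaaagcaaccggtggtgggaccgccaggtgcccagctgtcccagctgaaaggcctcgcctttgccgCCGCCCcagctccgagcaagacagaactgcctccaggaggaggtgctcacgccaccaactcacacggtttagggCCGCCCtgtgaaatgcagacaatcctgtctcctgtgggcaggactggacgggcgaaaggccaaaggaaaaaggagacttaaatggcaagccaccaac

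The Zkscan5 peak had a signal of 1.92 in replicate 1 and 2.31 in replicate 2, and the Btg2 peak had 2.11 in replicate 1 and 1.80 in replicate 2. Each had a stronger peak beside it, and these neighbours are printed with the footprint bases of replicate 1 in capitals. They show where footprints were called, while none was called in the footprint-free peaks, and whether those lack protection was not tested.
Zkscan5 stronger neighbour, chr5:145204321-145204540: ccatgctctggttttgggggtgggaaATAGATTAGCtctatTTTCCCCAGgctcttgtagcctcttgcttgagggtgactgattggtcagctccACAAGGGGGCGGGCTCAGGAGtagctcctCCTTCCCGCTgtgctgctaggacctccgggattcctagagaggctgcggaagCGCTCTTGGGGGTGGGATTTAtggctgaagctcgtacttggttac
Btg2 stronger neighbour, chr1:134060881-134061120: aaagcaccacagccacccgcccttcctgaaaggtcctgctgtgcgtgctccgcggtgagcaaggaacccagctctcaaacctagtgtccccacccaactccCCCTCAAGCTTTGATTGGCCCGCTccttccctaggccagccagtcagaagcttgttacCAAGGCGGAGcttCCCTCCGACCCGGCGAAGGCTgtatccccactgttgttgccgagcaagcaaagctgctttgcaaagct

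The neighbour at Zkscan5 had a signal of 6.98 in replicate 1 and 7.31 in replicate 2, with 5 footprints covering 71 of its 220 bases. The neighbour of the Btg2 peak had 4.78 in replicate 1 and 4.74 in replicate 2, with 3 footprints covering 55 of its 240 bases. In both places the footprint-free peak was the weaker of a pair, and its centre lay 340 bp from that of the neighbour at Zkscan5 and 410 bp for Btg2. These 2 pairs were chosen after their values were seen. For contrast, the next sequence is a strong footprinted peak with a CTCF consensus match, at an offset of -182 bp from a TSS of Cbl, which encodes a ubiquitin ligase. Its signal was 8.43 in replicate 1 and 9.90 in replicate 2, its capitals are the bases of 6 footprints, and all 12 bases of the CTCF match fell inside a footprint.
Cbl footprinted peak, chr9:44234101-44234360: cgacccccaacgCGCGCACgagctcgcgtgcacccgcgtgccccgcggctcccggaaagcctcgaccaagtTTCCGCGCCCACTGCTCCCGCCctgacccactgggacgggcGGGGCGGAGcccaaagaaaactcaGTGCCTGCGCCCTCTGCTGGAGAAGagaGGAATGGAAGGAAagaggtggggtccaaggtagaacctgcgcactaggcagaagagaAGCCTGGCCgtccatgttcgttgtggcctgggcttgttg

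The strong footprint-free peaks were few and modest in height. They made up 1.25% of the 33318 peaks of signal 1 or more in replicate 1 and 1.03% of 41117 in replicate 2. Their median signal was 1.30 in replicate 1 and 1.33 in replicate 2, with a highest value of 2.96 and 2.59 in the same order of libraries, against medians of 2.00 and 2.46 in the strong peaks that held a footprint in both libraries (28616 peaks in replicate 1 and 28697 in replicate 2). Those footprinted peaks held a median of 3 footprints. The footprint-free peaks were also wider, with a median of 280 bp in each library against 220 bp. Most also overlapped a peak of the shorter deposited list, 97.6% in replicate 1 and 96.7% in replicate 2, against 97.5% and 98.3% of the footprinted ones.

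Near the threshold, the lowest footprint-free peak inside the rule had a signal of 1.006 in replicate 1 and 1.007 in replicate 2. The highest peaks that met the other conditions but fell just outside had 0.998 in replicate 1, nearest to Ncoa2, and 0.999 in replicate 2, nearest to Tcf7. Of the footprint-free peaks, 72 in replicate 1 and 81 in replicate 2 lay under 1.1, and 69 in replicate 1 and 50 in replicate 2 lay between 0.9 and 1 and met all other conditions. The set is thus the upper end of a continuous range.

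The rule keeps the peaks whose lack of a footprint recurred, so the following counts describe the choice and support nothing. Before the second library was considered, 1551 strong peaks of replicate 1 (4.66%) and 1454 of replicate 2 (3.54%) held no footprint. Of those whose partner in the other library was also strong, 36.1% in replicate 1 (n = 1157) and 45.1% in replicate 2 (n = 937) were footprint-free again. Among strong footprinted peaks with a strong partner, the partner was footprint-free for 1.84% in replicate 1 and 2.62% in replicate 2; these groups were not matched on signal. Most strong footprint-free peaks fell outside the rule: of the 1551 in replicate 1, 739 had a strong partner with a footprint, 251 had only a weaker partner and 143 had none, and in replicate 2 these counts were 514, 298 and 219. Of the weaker partners, 116 in replicate 1 and 170 in replicate 2 were themselves footprint-free.

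The signals of the 391 pairs agreed closely, as the rule itself favours, since it holds both values above 1. On the log2 scale, replicate 1 over replicate 2 had a median ratio of 0.01, with 198 of 391 pairs higher in replicate 1, while over all 68801 autosomal pairs the median was -0.14. After centring on that median, 0 of 391 pairs passed a 2-fold difference. This was so for 5.25% of all autosomal pairs and for 2.19% of pairs with a signal of 1 or more in both libraries, and nothing is read from the contrast, because both signals entered the rule. The widest differences were small: the Celsr2 peak, in an exon of an atypical cadherin gene, had 1.58 in replicate 1 and 1.03 in replicate 2, and the peak nearest to Anapc16, which encodes a subunit of the anaphase-promoting complex, had 1.05 in replicate 1 and 1.72 in replicate 2.

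**Figure D1:**
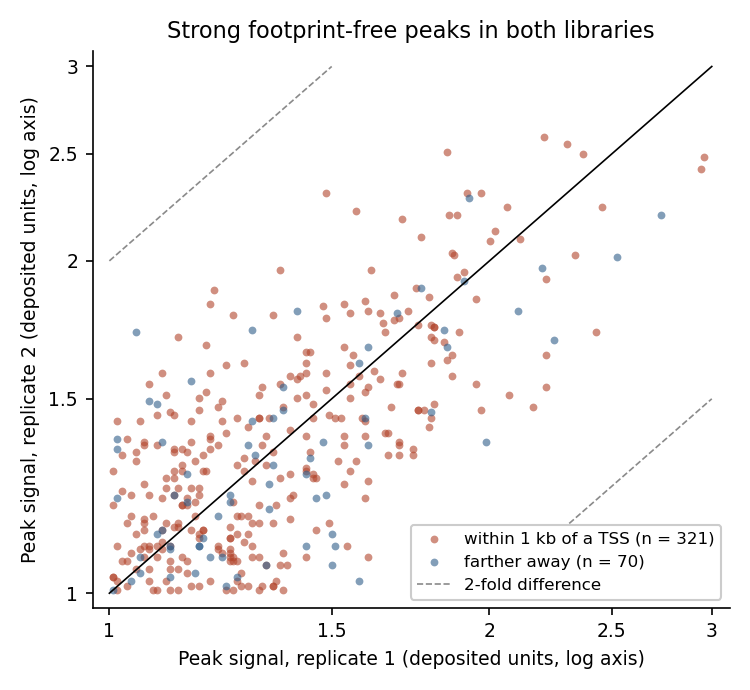
Peak signal of the 391 paired strong footprint-free peaks in replicate 1 (x axis) and replicate 2 (y axis), both in the deposited units on log axes. Each point is 1 pair, coloured by whether it lies within 1 kb of a TSS, the solid line marks equal signal and the dashed lines a 2-fold difference; all points lie between the dashed lines, and the highest is below 3 in both libraries.

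The strong footprint-free peaks were mostly promoter peaks. Within 1 kb of the TSS of a protein-coding gene lay 345 of 418 (82.5%) in replicate 1 and 351 of 423 (83.0%) in replicate 2, a mean of 82.8 ± 0.31% (SD, n = 2 libraries). Of the strong footprinted peaks 46.7% did so in each library, and of all autosomal peaks 29.6% in replicate 1 and 25.6% in replicate 2. Among footprinted peaks in the same range of signal, from 1 to under 2, the promoter share was lower still, 23.9% in replicate 1 and 27.5% in replicate 2. No test was made of this or of the differences that follow, because the peaks of a library are not replicates and there is 1 group. The spread between the libraries was far smaller than the difference. It is no yardstick, however, since the rule keeps peaks that overlap between the libraries. Without that condition the promoter difference was 18.8 percentage points in replicate 1 and 27.2 in replicate 2, against 35.9 and 36.2 with it. Of all footprint-free peaks, promoter peaks included, 3.83% in replicate 1 and 3.78% in replicate 2 lay in introns outside promoters. Of all strong footprinted peaks 20.9% did so in each library, and this gap in part restates the promoter share.

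At promoters the footprint-free peaks lay on the gene side of the TSS. Their centres had a median offset of 256 bp downstream of the nearest TSS in replicate 1 and 266 bp in replicate 2, against -32 bp and -35 bp (upstream) for strong footprinted promoter peaks. Downstream centres made up 69.9% in replicate 1 and 68.7% in replicate 2, against 30.3% and 28.6% of footprinted promoter peaks. A band from 200 to 600 bp downstream held 43.5% in replicate 1 and 43.6% in replicate 2, against 6.98% and 7.06%. Conversely, 15.9% in replicate 1 and 15.7% in replicate 2 were centred within 100 bp of the TSS, where 63.8% and 62.6% of the footprinted ones were. A smaller group lay upstream, 104 peaks in replicate 1 and 110 in replicate 2, with a median offset of -378 bp and -407.5 bp.

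**Figure D2:**
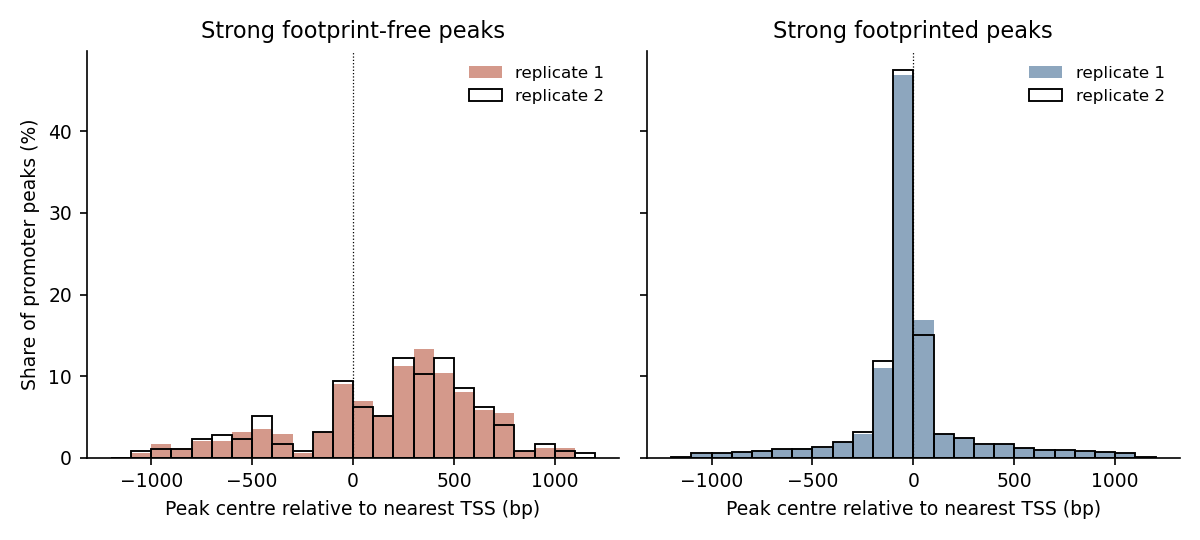
Position of promoter peaks relative to the nearest protein-coding TSS, in 100 bp steps (x axis, negative is upstream), as a share of promoter peaks (y axis, percent), for strong footprint-free peaks on the left and strong footprinted peaks on the right. Filled bars are replicate 1 and outlined bars replicate 2; the footprint-free peaks spread over 200 to 600 bp downstream, with a smaller group upstream, while the footprinted peaks pile up just upstream of the TSS.

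Most of the footprint-free peaks sat beside a taller peak. An adjacent peak of the same library was stronger and lay within 500 bp, edge to edge, for 359 of 418 (85.9%) in replicate 1 and 361 of 423 (85.3%) in replicate 2. Only the next peak on each side was compared, so a stronger one beyond a weaker one was not counted. The mean share was 85.6 ± 0.38% (SD, n = 2 libraries). The share was 9.06% in replicate 1 and 9.21% in replicate 2 for strong footprinted peaks. The neighbour's signal was a median of 3.86 times that of the footprint-free peak in replicate 1 and 3.79 times in replicate 2, its centre lay 470 bp and 480 bp away, and it held a median of 5 footprints. In 84.2% of the footprint-free peaks in replicate 1 and 82.7% in replicate 2 the stronger neighbour held a footprint. The nearest footprint to a footprint-free peak was a median of 221.5 bp from its edge in replicate 1 and 218 bp in replicate 2, and 10.5% and 12.8% had one within 100 bp.

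They also belonged to long unbroken accessible stretches. The authors' cut-rate track lists stretches with a false discovery rate (FDR) under 0.05, and the stretch that held a footprint-free peak ran for a median of 1268.5 bp in replicate 1 and 1335 bp in replicate 2, against 444 bp and 490 bp for strong footprinted peaks. It reached 1000 bp for 68.9% of the footprint-free peaks in replicate 1 and 77.3% in replicate 2, against 15.1% and 19.1%. The lowest FDR inside the peak, as a median of −log10 values, was 9.29 in replicate 1 and 9.77 in replicate 2. It was 13.3 and 18.1 in all strong footprinted peaks, and 8.16 and 9.07 in footprinted peaks of signal 1 to 2.

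The closest comparison is with footprinted promoter peaks of signal 1 to 2 that also had a stronger neighbour (748 in replicate 1 and 710 in replicate 2), set against the 305 and 306 footprint-free promoter peaks with one. The distance to the neighbour was alike, a median of 490 bp in replicate 1 and 480 bp in replicate 2 for footprint-free peaks, against 480 bp and 465.25 bp. The neighbour's relative height was not: it had a median of 3.93 times the peak's signal in replicate 1 and 3.87 times in replicate 2 for footprint-free peaks, against 1.59 and 1.52 times. The unbroken stretch was 1278 bp in replicate 1 and 1353 bp in replicate 2 for footprint-free peaks, against 789.5 bp and 847.5 bp. Downstream centres made up 68.5% in replicate 1 and 68.0% in replicate 2 for footprint-free peaks, against 52.8% and 54.2%. The peaks' own median signal was somewhat lower, 1.30 in replicate 1 and 1.32 in replicate 2 for footprint-free peaks, against 1.43 and 1.45, and the part of this difference in the others was not tested.

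**Figure D3:**
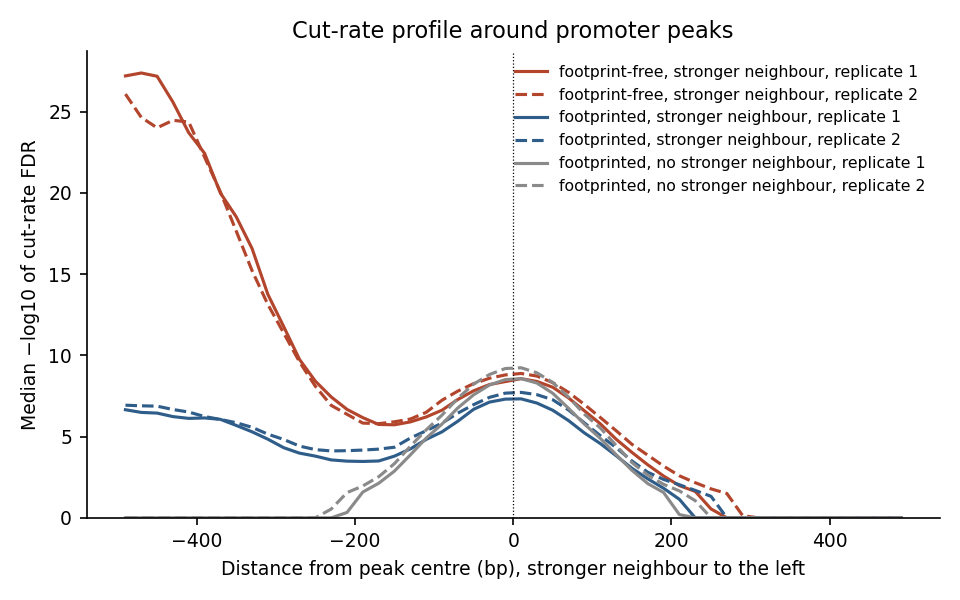
Median −log10 of the cut-rate FDR (y axis) against distance from the peak centre in bp (x axis), with the stronger neighbour turned to the left, for promoter peaks: footprint-free with a stronger neighbour, and footprinted peaks of signal 1 to 2 with and without one; solid lines are replicate 1 and dashed lines replicate 2. At the centre the footprint-free peaks reach 8.57 in replicate 1 and 8.89 in replicate 2, near the footprinted ones with a neighbour (7.32 and 7.72), while 470 bp to the left they stand at 27.4 and 24.7, against 6.49 and 6.90.

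Turned round, the share of peaks without a footprint followed the neighbour's height. This was counted over all autosomal peaks of signal 1 to 2 in a library, whatever the other library held. At promoters with a stronger neighbour the footprint-free share was 16.5% in replicate 1 and 14.4% in replicate 2 when the neighbour had 1 to 2 times the peak's signal. It was 50.3% and 42.4% at 2 to 4 times, and 78.9% and 71.9% at 4 times or more. Away from promoters the order was the same, with 12.9% in replicate 1 and 9.29% in replicate 2, then 32.2% (65 of 202) and 79 of 255 peaks, then 66.7% (28 of 42) and 56.7% (38 of 67). Without a stronger neighbour the share was 5.36% in replicate 1 and 4.70% in replicate 2 at promoters, and 2.74% and 1.86% away from them. As a share of peaks, footprint-free peaks were thus common beside much taller peaks and uncommon elsewhere, at promoters and away from them. By number, away from promoters more had no stronger neighbour than had one, 351 against 186 in replicate 1 and 295 against 190 in replicate 2. At promoters the numbers ran the other way, 173 without and 713 with one in replicate 1, and 157 and 729 in replicate 2.

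The position relative to the TSS and the neighbour each went with the share. Among promoter peaks with a stronger neighbour, the footprint-free share was 50.8% in replicate 1 and 45.0% in replicate 2 at 200 to 600 bp downstream of the TSS, against 37.1% and 34.9% at 200 to 600 bp upstream. Without a stronger neighbour they were 30 of 278 peaks in replicate 1 and 26 of 309 in replicate 2 downstream, against 7 of 249 and 11 of 250 upstream. By the length of the stretch, the share was 3.88% in replicate 1 and 2.47% in replicate 2 under 300 bp, and 57.5% and 49.1% at 1500 bp or more. By peak width, it was 19.2% in replicate 1 and 15.3% in replicate 2 under 150 bp, and 3.61% and 1.61% from 150 to 200 bp. At 340 bp or more it was 16.5% and 14.8%, so the narrowest and the widest peaks both stood above those between. By signal, it was 767 of 7639 peaks in replicate 1 and 796 of 8835 in replicate 2 from 1 to 1.25, and 3 of 4283 and 1 of 4946 at 5 or more. A call of footprints also needs cuts, and how far the number of cuts in a peak moves these shares was not tested.

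**Figure D4:**
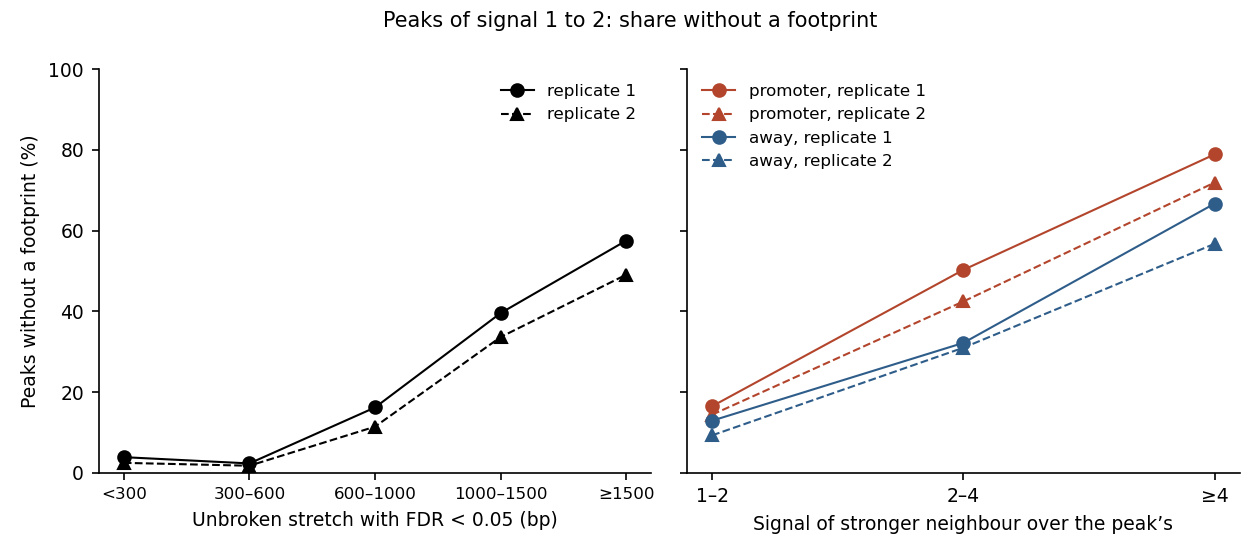
Share of autosomal peaks of signal 1 to 2 that hold no footprint (y axis, percent) by length of the unbroken stretch with FDR under 0.05 (left, bp) and by the signal of the stronger neighbour divided by that of the peak (right), at promoters and away from them. Circles are replicate 1 and triangles replicate 2; the share rises to 57.5% and 49.1% in the longest stretches, and to 78.9% and 71.9% beside the tallest neighbours at promoters.

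Of the footprint-free promoter peaks, the highest was at Ube2d3, which encodes a ubiquitin-conjugating enzyme, with a signal of 2.96 in replicate 1 and 2.48 in replicate 2, centred 130 bp downstream of a TSS (chr3:135439201-135439480). Next was Eif4e, the cap-binding factor of translation initiation, with 2.94 in replicate 1 and 2.42 in replicate 2, centred 16 bp downstream of a TSS (chr3:138526341-138526540). The Sp2 peak, at a gene of the SP zinc finger family, had 2.37 in replicate 1 and 2.50 in replicate 2. The Serinc3 peak, at a gene of a multipass membrane protein, had 2.30 in replicate 1 and 2.55 in replicate 2. Sp2 and Serinc3 show the usual layout: their centres lay 370 bp and 380 bp downstream of a TSS, with neighbours of signal 8.58 and 12.5 in replicate 2. Eif4e was one of the exceptions, with no stronger adjacent peak within 500 bp in either library. Its nearest footprint was 556 bp away in replicate 1 and 404 bp in replicate 2.

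Tuba1c carried a pair of footprint-free peaks around 1 taller peak. One was centred at an offset of -20 bp from a TSS, with 2.21 in replicate 1 and 2.59 in replicate 2, and the other was the printed one 930 bp downstream, with 2.34 in replicate 1 and 2.02 in replicate 2. The stronger neighbour of both had a signal of 7.07 in replicate 1 and 6.42 in replicate 2 and held 7 footprints in replicate 1. Other strong promoter peaks of the kind were at Stt3b, which encodes a catalytic subunit of oligosaccharyltransferase (2.46 in replicate 1 and 2.24 in replicate 2), at Nadk, the NAD kinase gene (2.06 and 2.24), and at Ppm1a, which encodes a protein phosphatase (1.97 and 2.31). The Ndel1 peak, with 1.85 in replicate 1 and 2.51 in replicate 2, had a neighbour of 11.9 and 10.5. The neighbour at Ppm1a was closer in height to the footprint-free peak, with 4.03 in replicate 1 and 3.19 in replicate 2.

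Where no stronger adjacent peak lay within 500 bp, the footprint-free promoter peaks had other surroundings. There were 40 in replicate 1 and 45 in replicate 2. Their nearest footprint was a median of 510 bp away in replicate 1 and 542 bp in replicate 2, and their stretches ran for 1656 bp and 1718 bp. After Eif4e, the highest were at Hagh, the gene of the glyoxalase system's hydrolase (1.87 in replicate 1 and 2.03 in replicate 2), Sin3a, the scaffold of a histone deacetylase complex (1.77 and 2.10), and Tmbim6, which encodes Bax inhibitor 1 (1.75 and 1.89). The Hagh peak was set apart even from these, with its nearest footprint 1278 bp away in replicate 1 and 1262 bp in replicate 2 and a stretch of 310 bp in replicate 1, while the stretch at Sin3a ran for 2315 bp. Lacking a footprint was therefore not tied to a stronger adjacent peak within 500 bp in every case. Some of these peaks had one farther off. With a distance of 1000 bp the share of footprint-free promoter peaks with a stronger adjacent peak was 93.6% in replicate 1 and 92.0% in replicate 2, against 88.4% and 87.2% at 500 bp.

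By gene, 377 protein-coding genes had a footprint-free peak at a promoter in both libraries, which is 3.30% of the 11416 with any promoter peak of signal 1 or more in both. Of these 377 genes, 375 also had a strong footprinted peak at a promoter, and the 2 without, Fxyd5 and Zfp422, were named after their values were seen. In replicate 1, 49 footprint-free promoter peaks were near more than 1 gene, and in replicate 2 53 were. Of all 11416 genes with a strong promoter peak, 11326 (99.2%) had a strong footprinted one, so the 99.5% among the genes with a footprint-free peak is near the share of all.

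No gene of the lists for the bladder's cell types was among them. Of urothelial genes with a strong promoter peak, 0 of 21 had a footprint-free one, and so did 0 of 9 smooth muscle and 0 of 12 fibroblast genes; at 3.30% over all genes, counts this small cannot be told from that share. Of immediate early genes, the genes that stimulated cells switch on fast, 3 of 20 did. The Fos peak had a signal of 1.59 in replicate 1 and 1.39 in replicate 2, 601 bp downstream of a TSS, and the Jun peak had 1.14 and 1.29, 611 bp downstream; both encode subunits of AP-1. The peak at Atf3, which encodes a stress-induced member of the ATF family, had 1.42 and 1.57, 749 bp downstream. Among targets of nuclear receptors 2 of 11 did: Sgk1, a glucocorticoid-induced kinase gene, with 1.46 in replicate 1 and 1.27 in replicate 2, and Cebpd, a C/EBP factor gene, with 1.31 and 1.44. A further immediate early gene, Klf6, had a footprint-free peak in an exon, with 1.77 in replicate 1 and 1.89 in replicate 2. Among housekeeping genes 0 of 14 had one at a promoter. These lists are also small, so nothing is read from 3 of 20 or 2 of 11 beside 3.30% over all genes.

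Away from promoters the footprint-free peaks were rarer. There were 73 in replicate 1 and 72 in replicate 2, with a median signal of 1.30 and 1.28. A stronger neighbour lay within 500 bp of 74.0% in replicate 1 and 76.4% in replicate 2, against 88.4% and 87.2% at promoters. That share describes the peaks the rule kept. Before the second library was considered, most footprint-free peaks of signal 1 to 2 away from promoters had no stronger neighbour. Of strong footprinted peaks away from promoters, 4.99% and 5.14% had one. The unbroken stretch of the footprint-free peaks kept by the rule was 901 bp and 981.5 bp long, against 318 bp and 345 bp for those footprinted ones. Strong examples lay nearest to Ell, the gene of an RNA polymerase II elongation factor (1.93 in replicate 1 and 2.28 in replicate 2), and nearest to Irf2bp2, a transcriptional co-repressor gene (2.20 and 1.97). They were followed by a peak in an exon of Plec, the gene of the cytoskeletal linker plectin (2.25 and 1.70), and the printed one nearest to Btg2. The centre of the Ell peak lay at only -1256 bp from a TSS, so that part of this group is next to promoters as well, while the one nearest to Irf2bp2 lay at -142695 bp.

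Neither repeats nor multicopy sequence made up the set. At least 50% of the central 150 bp was repeat-masked in 2 footprint-free peaks of each library (0.48% in replicate 1 and 0.47% in replicate 2), nearest to Nhsl1 and Fmc1, against 0.86% and 0.85% of strong footprinted peaks. At least 50% of the 31-mers of that window occurred elsewhere in the genome in 3 peaks in replicate 1 and 2 in replicate 2 (0.72% and 0.47%, against 0.67% and 0.61%). These lay at H2afx, a histone gene, and nearest to Gm15319 and 4930467E23Rik, and 0 peaks matched the mitochondrial genome. The H2afx window had a median of 18 genomic copies per 31-mer. The peak nearest to Gm15319, with 1.50 in replicate 1 and 1.06 in replicate 2, is printed because 70% of its 31-mers were multicopy and a GC box match (capitals) stood near its end.
Gm15319 multicopy peak, chr8:20424181-20424420: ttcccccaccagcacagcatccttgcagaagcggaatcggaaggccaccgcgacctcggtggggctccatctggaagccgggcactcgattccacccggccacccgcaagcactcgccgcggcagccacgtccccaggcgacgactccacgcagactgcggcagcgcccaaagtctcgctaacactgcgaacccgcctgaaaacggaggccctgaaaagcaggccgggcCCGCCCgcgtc

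The footprint-free peaks were often CpG-rich. Of their central windows, 62.2% in replicate 1 and 60.8% in replicate 2 were CpG-rich (GC of at least 55% and an observed over expected CpG ratio of at least 0.6), against 40.2% and 39.7% of strong footprinted peaks. Among promoter peaks alone the direction was the opposite, with 68.4% in replicate 1 and 67.0% in replicate 2 for footprint-free peaks against 74.0% and 73.3%. Footprinted promoter peaks of signal 1 to 2 had a lower share than the footprint-free ones, 55.1% in replicate 1 and 56.4% in replicate 2. Away from promoters, 32.9% of the footprint-free peaks in replicate 1 and 30.6% in replicate 2 were CpG-rich, against 10.6% and 10.3% of strong footprinted peaks.

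Consensus matches of several promoter and insulator factors were scarcer in the footprint-free peaks. In the central 150 bp, on both strands, CTCF (searched by its consensus) matched in 0.24% of footprint-free peaks in replicate 1 and 0.47% in replicate 2, which is 1 and 2 peaks, against 7.02% and 7.13% of strong footprinted peaks and 5.04% and 5.28% of all autosomal peaks. For NFY (CCAATNA), a trimeric factor of many promoters, the mean over libraries was 3.21 ± 0.2% against 8.51 ± 0.042% (SD, n = 2 libraries), with 5.92% of all peaks. NRF1 (by its consensus), a factor of CpG-rich promoters, matched in 1.43% against 4.25%, with 1.47% of all peaks. C/EBP (TTGCNNAA) matched in 3.45% against 6.82%, with 8.50% of all peaks, the E-box CAGCTG in 7.97% against 11.80%, with 13.4%, and AP-1 (TGANTCA) in 7.49% against 9.99%, with 12.3%. These were the 6 of 40 consensus sequences with the most negative difference.

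Other consensus sequences matched more often in the footprint-free peaks. TFAP2 (GCCNNNGGC) matched in 17.0% of footprint-free peaks against 12.7% of strong footprinted ones, with 9.20% of all peaks, HIF (ACGTG) in 16.9% against 13.3%, with 11.0%, and the GC box in 36.0% against 33.9%, with 17.8%. NF-kB (by its consensus) matched in 6.42% against 4.85%, with 4.05%, the Nrf2 element (TGACNNNGC) in 10.7% against 9.47%, with 8.80%, and the nuclear receptor half-site (AGGTCA) in 8.69% against 7.75%, with 10.1%. The difference for the nuclear receptor half-site was 1.84 percentage points in replicate 1 and 0.027 in replicate 2, so it was within the spread between the libraries, and for the GC box it was 3.15 and 1.04. The HIF letters are also found inside the E-box CACGTG, and the GC box letters overlap wider SP and KLF consensus sequences, so these counts are not independent. Among promoter peaks alone, TFAP2 matched in 18.0% of footprint-free peaks against 16.4% of strong footprinted ones, and HIF in 17.4% against 16.3%. NF-kB was reversed there, with 5.75% against 5.95%. The Nrf2 element matched in 10.9% against 9.06%, and the nuclear receptor half-site in 8.20% against 5.01%. In footprinted promoter peaks of signal 1 to 2 beside a stronger neighbour, TFAP2 matched in 14.6% in replicate 1 and 19.6% in replicate 2. For footprint-free promoter peaks it was 17.4% and 18.5%, so the direction differed between the libraries. In those footprinted peaks HIF matched in 12.4%, the Nrf2 element in 6.58%, NF-kB in 7.83% and the nuclear receptor half-site in 5.81%. A match is a run of letters, not a bound site.

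For NFY, NRF1 and some other sequences the footprint-free peaks came near footprinted peaks at the side of a promoter, and for others they did not. In promoter peaks, NFY matched in 2.73% of footprint-free peaks and NRF1 in 1.44%, against 12.3% and 8.21% of all strong footprinted promoter peaks. In the footprinted promoter peaks of signal 1 to 2 beside a stronger neighbour, which hold footprints, the shares were close to those of the footprint-free peaks, 2.90% for NFY and 1.92% for NRF1. C/EBP matched in 2.15% of footprint-free promoter peaks, against 5.36% of these side peaks and 3.79% of all strong footprinted promoter peaks. The E-box CAGCTG matched in 6.89% of footprint-free promoter peaks, against 9.07% and 7.96%, and CTCF in 0.14%, against 0.75% and 1.37%. The GC box matched in 38.7% of footprint-free promoter peaks, against 45.4% of these side peaks and 56.7% of all strong footprinted promoter peaks, the reverse of the direction over all peaks. AP-1 was reversed likewise, with 6.47% of footprint-free promoter peaks against 3.91% and 3.39%. Away from promoters CTCF matched in 1.37% of footprint-free peaks in replicate 1 and 1.39% in replicate 2, which is 1 peak in each, against 12.0% and 12.1% of strong footprinted ones.

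**Figure D5:**
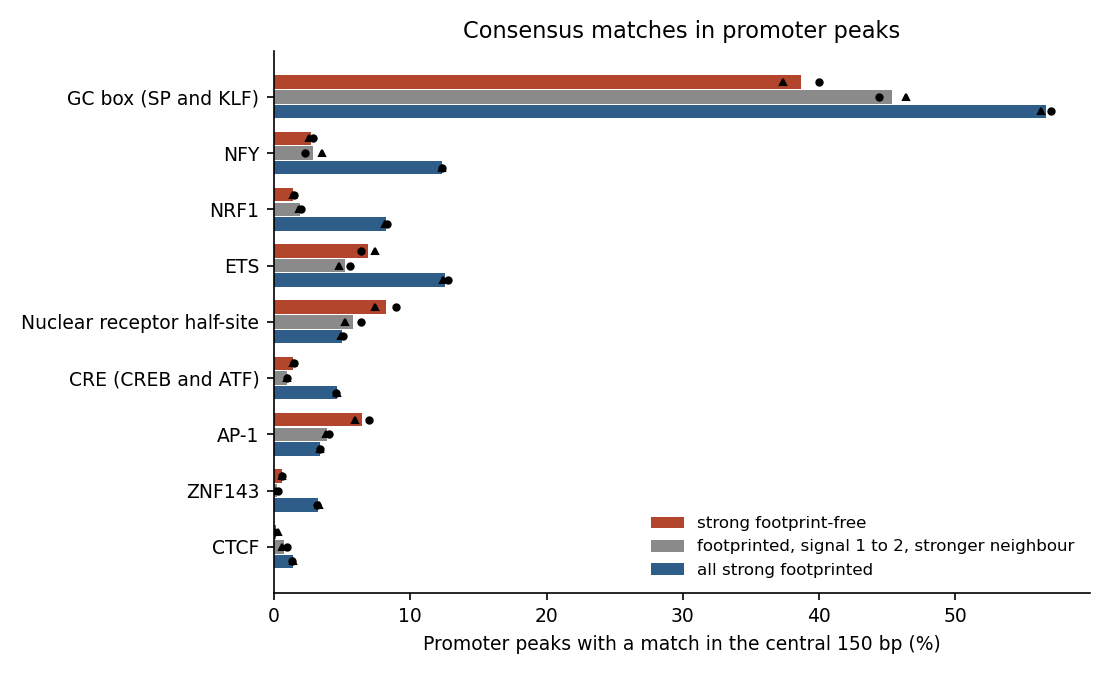
Share of promoter peaks with a consensus match in the central 150 bp (x axis, percent) for the 8 consensus sequences with the largest difference at promoters in either direction, chosen after their values were seen, and CTCF. Bars are means of 2 libraries, circles replicate 1 and triangles replicate 2, for strong footprint-free peaks, footprinted peaks of signal 1 to 2 with a stronger neighbour, and all strong footprinted peaks; for NFY and NRF1 the first 2 groups lie at 2.73% and 2.90%, and at 1.44% and 1.92%, well below the third.

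The footprint-free peaks were spread over all 19 autosomes. Their number ran from 7 on chromosome 18 to 35 on chromosome 11 in replicate 1, and from 7 on chromosome 18 to 36 on chromosome 7 in replicate 2. Their share of strong peaks ran from 0.74% to 1.67% in replicate 1 and from 0.59% to 1.37% in replicate 2. Wide ones were found at Kmt2e, which encodes a SET-domain protein, with 960 bp and a signal of 1.12 in replicate 1 and 1.01 in replicate 2, and at 1190002N15Rik, with 840 bp and 1.12 and 1.05. Both were promoter peaks near the signal threshold, centred 712 bp and 600 bp downstream of a TSS.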

How the data were processed

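The authors deposited, per library, a longer and a shorter peak list, footprints and a cut-rate track, all on mm10 per the labels; aligner and caller: not given in the sources used here. The deposited peak signal is used as given, and its scaling and the depth are unknown. The deposited cut-rate FDR and the footprint value of 0.01, the same in every row, are on the p-value scale. Sequence and genes came from GRCm38.p6 and GENCODE M21. Windows were the central 150 bp; 31-mers were counted over the genome; 40 consensus sequences were searched on both strands. The longer list was the main one and peaks were joined at 1 bp of overlap. Named peaks were, by rule, the 10 strongest of all, of single-copy unmasked sequence and of promoters, up to 3 per gene list and place, the 3 most extreme ratios either way, the 3 widest and those nearest the threshold; the strongest away from promoters, those without a stronger neighbour and the multicopy or masked ones were added after their values were seen; some peaks that the rule names are not reported here. Members and the 15 gene lists were chosen with earlier results of these data known. Overlap, distance, 31-mer and motif counting were tested on simulated data. Python 3.11.15, numpy 2.4.6, pandas 2.3.3, numba 0.67.0 and matplotlib 3.10.9 were used. Values are per library or mean ± SD over 2 libraries, with no statistical test. Alternatives were the signal threshold, footprint margin, overlap, list, window and each library alone. Chromosomes X and Y are outside the rule.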

Additional observations from a re-analysis of the deposited data

Results flagged for a closer look

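Chromosome X lies outside the rule, and the same conditions applied to it gave 5 strong footprint-free peaks in replicate 1 and 5 in replicate 2. That is 0.83% of 602 peaks of signal 1 or more in replicate 1 and 0.67% of 750 in replicate 2, against 1.25% and 1.03% on the autosomes. They stand here because chromosome X is outside the main measurement and the counts were above 0, and 3 of the 5 lay within 1 kb of a protein-coding TSS in each library. These peaks entered no comparison above.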

How the results depend on the processing

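Differences below are strong footprint-free minus strong footprinted peaks, in percentage points as a mean of both libraries, or in bp for the median TSS offset; they were 36.1 for promoters, -0.38 for repeats, 21.5 for CpG-rich windows, -6.72 for CTCF, -0.045 for multicopy windows, 76.5 for a stronger neighbour and 294.5 bp for the offset. The spread between the libraries was small for these, as the rule keeps peaks that overlap between them, so most settings moved a value by more than it. The causes were not tested. The neighbour and offset measures, the neighbour distances of 200 and 1000 bp and the restriction to promoter peaks were chosen after seeing the data.

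A signal threshold of 2 left 14 footprint-free peaks and gave 13.7, -0.33, -0.22 (CpG-rich, direction reversed), -4.00, -0.57, 80.2 and 205 bp in the order above. Signals from 1 to under 2 gave 56.97 for promoters, -0.81 for repeats, 42.7 for CpG-rich, 75.01 for a neighbour and 280 bp; for CTCF the libraries differed widely there, with -10.1 in replicate 1 and -3.32 in replicate 2. Counting footprints within 20 bp of an edge gave -0.37 for repeats. A reciprocal overlap of 50% gave 36.7, -0.31, 22.4, -7.07, -0.22, 77.1 and 323 bp. The shorter list gave 34.2, -0.36, 20.1, -6.88, -0.26, 74.8 and 276.5 bp. Promoters within 500 bp gave 25.9. Whole peaks gave -0.71 for repeats, 20.8 for CpG-rich and -6.99 for CTCF, and a multicopy minimum of 10% gave -0.41. A neighbour within 200 bp gave 41.6 and within 1000 bp 78.2. Promoter peaks alone gave -0.13 for repeats, -5.96 for CpG-rich (direction reversed), -1.23 for CTCF, -0.31 for multicopy windows and 74.0 for a neighbour.

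With each library on its own, the number of footprint-free peaks was 1454 to 1551, and the differences were 18.8 to 27.2 for promoters, -0.65 to -0.38 for repeats, 8.38 to 14.8 for CpG-rich, -9.52 to -5.83 for CTCF, -0.29 to 0.037 for multicopy windows (reversed without replicate 2), 53.8 to 57.8 for a neighbour and 222 to 252 bp for the offset. No paired analysis was possible because the libraries form a single group.

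Depth is unknown, since the deposited signal is scaled. The libraries are 2 of 1 group, so the spread rests on a pair of values, and whether they come from separate animals is not stated. The footprints carry 1 value in every row and cannot be ranked, so a near miss cannot be told from no protection. Signal and footprints chose the peaks, and comparisons hold for peaks of 1 library as units, not for animals.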

Other observations

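The TSS of a long non-coding RNA gene lay within 1 kb of 15.4% of the footprint-free promoter peaks in replicate 1 and 16.0% in replicate 2, against 11.3% of strong footprinted promoter peaks in each library. Away from protein-coding promoters it did so for 16.4% of the footprint-free peaks in replicate 1 and 16.7% in replicate 2, against 5.29% and 5.31%. At promoters, 56.2% of the footprint-free peaks in replicate 1 and 55.8% in replicate 2 overlapped an exon, against 80.6% and 79.1% of the footprinted ones. A tRNA gene lay within 200 bp of 4 footprint-free peaks in each library (0.96% in replicate 1 and 0.95% in replicate 2, against 0.62% and 0.63%).

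Footprint-free promoter peaks differed by side of the TSS in composition. Downstream ones were CpG-rich in 75.5% in replicate 1 and 70.5% in replicate 2, and upstream ones in 51.9% and 59.1%. A stronger neighbour was about as common on both sides, with 86.7% and 86.3% downstream and 92.3% and 89.1% upstream.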
